A study of Mus musculus with 6 samples.

Results

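B cells and plasma cells were followed through 9 genes chosen by name, all present among the 57186 genes of the count table: Cd79a, Cd79b, Ms4a1, Blk, Pax5, Ighm, Ighd, Jchain and Mzb1. The table holds bulk RNA-seq of cells sorted as CD45-negative, that is, without the common leukocyte antigen, from tumours of MB49, a mouse bladder carcinoma line of male origin. The Y-KO group (3 libraries) came from MB49 cells edited with CRISPR against the Y chromosome, and the Y-Scr group (3 libraries) from MB49 cells given a scrambled CRISPR control. Both were grown under the skin of C57Bl/6J mice and collected at 500 mm3. The age and sex of the mice and the number of edited clones are not given in the labels, all libraries carry 1 batch label, and nothing says that replicates came from separate animals. The p-values below thus rest on the variation among these 6 libraries, part or all of which could be technical.

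B cells recognise antigen with a surface immunoglobulin whose heavy chain is first of the mu or delta class, held in the membrane with the signalling chains Cd79a and Cd79b. Pax5 is the transcription factor that keeps a cell in the B lineage, and CD20 (Ms4a1) and the Src-family kinase Blk are typical of mature B cells. Plasma cells, the antibody-secreting descendants, lose most of these surface genes and rely on chaperones such as Mzb1 and on the joining chain Jchain, which links secreted IgM and IgA. In tumours B cells can gather with T cells in lymphoid aggregates.

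The libraries held 42040955 to 52951031 counts each. The summed level of 4 Y-linked genes (Kdm5d, Uty, Ddx3y and Eif2s3y) was 20.4 to 47.3 CPM in Y-KO and 296 to 344 CPM in Y-Scr, where CPM is the count scaled to the size of its library after TMM normalization. Leukocyte RNA was present despite the gate. Ptprc, the gene of CD45 itself, stood at 293, 298 and 134 CPM in Y-KO replicates 1, 2 and 3 and at 521, 577 and 601 CPM in Y-Scr. Y-KO replicate 3 stood apart. A chi-square statistic per gene with a mean of at least 1000 counts averaged 13.3 between Y-KO replicates 1 and 2 but 189 between each of these and replicate 3. In Y-Scr it was 7.72 between replicates 2 and 3, and 30.7 and 41.5 for the pairs with replicate 1. Whether the libraries of these 2 close pairs came from separate tumours is not given, so calls lost when each pair is summed into 1 sample are named.

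Promoter sequences (250 bases before to 50 after the gene start) were held by the RefSeq table, build GRCm38.p6, for 3 of the 9 genes, Cd79a, Pax5 and Jchain. The first of these genes fell in Y-KO and the second did not pass the test, so both windows are shown, 5′ to 3′ on the gene's strand. Capitals mark matches to 3 motifs chosen after the Cd79a sequence had been read.

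Cd79a (chr7:24897247-24897546, plus strand): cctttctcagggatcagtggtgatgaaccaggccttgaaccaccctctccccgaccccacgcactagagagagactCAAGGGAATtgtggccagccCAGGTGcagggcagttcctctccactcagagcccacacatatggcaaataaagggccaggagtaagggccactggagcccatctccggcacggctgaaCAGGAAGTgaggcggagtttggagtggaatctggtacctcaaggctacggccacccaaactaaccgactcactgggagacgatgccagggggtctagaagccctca

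Pax5 (chr4:44710645-44710944, minus strand): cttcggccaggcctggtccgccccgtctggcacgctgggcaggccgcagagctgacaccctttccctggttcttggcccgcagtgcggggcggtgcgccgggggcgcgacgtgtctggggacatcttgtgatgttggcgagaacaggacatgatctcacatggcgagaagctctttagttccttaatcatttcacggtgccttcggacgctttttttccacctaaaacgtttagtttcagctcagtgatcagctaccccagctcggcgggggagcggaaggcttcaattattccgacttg

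In the Cd79a window CAAGGGAAT, the letters known there as a site of the factor Ebf1, began 174 bases before the gene start. The E-box CAGGTG began 154 bases before it, and the Ets-type sequence CAGGAAGT 56 bases before it, all on the gene's strand. Among the 32851 promoter windows of the table, 0.244% held the first, 20.2% the second and 3.33% the third on either strand. None of these 3 was found in the Pax5 window, and the Jchain window held 1 E-box. The octamer ATGCAAAT (1.74% of windows) and an inverted repeat of TCCC, any 2 bases and GGGA (0.904% of windows) were in none of the 3. The first 3 motifs were chosen after the Cd79a sequence had been read, so their contrast with the Pax5 window is not a test. All of these are matches of letters only and no binding was measured.

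In Y-KO 6 of the 9 fell (Cd79a, Cd79b, Ms4a1, Blk, Ighm and Ighd), none rose, Pax5 and Jchain were tested without passing, and Mzb1 had too few counts to be tested. The test was edgeR's quasi-likelihood test with Benjamini-Hochberg adjustment over all 17837 genes tested. Of those genes 8.27% were called lower and 7.82% higher in Y-KO at an adjusted p under 0.05. In 7 of the 8 tested members, all but Pax5, every Y-KO library lay below every Y-Scr library, against 20.3% of all genes tested. The median log2 fold change of the 8 was -2.47 and that of all genes -0.03. However, 4 of the 8 (Ms4a1, Blk, Ighd and Jchain) reached the limit of the low-count filter in all 3 libraries only in Y-Scr. In Y-KO 2 libraries reached it for Ms4a1, Blk and Ighd and 1 for Jchain. These genes thus entered the test only with Y-Scr libraries counted in. Of the other 4 tested members, which reached it in both groups, 3 fell. In bulk RNA, fewer cells of a type and less RNA per cell cannot be told apart.

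**Figure D1:**
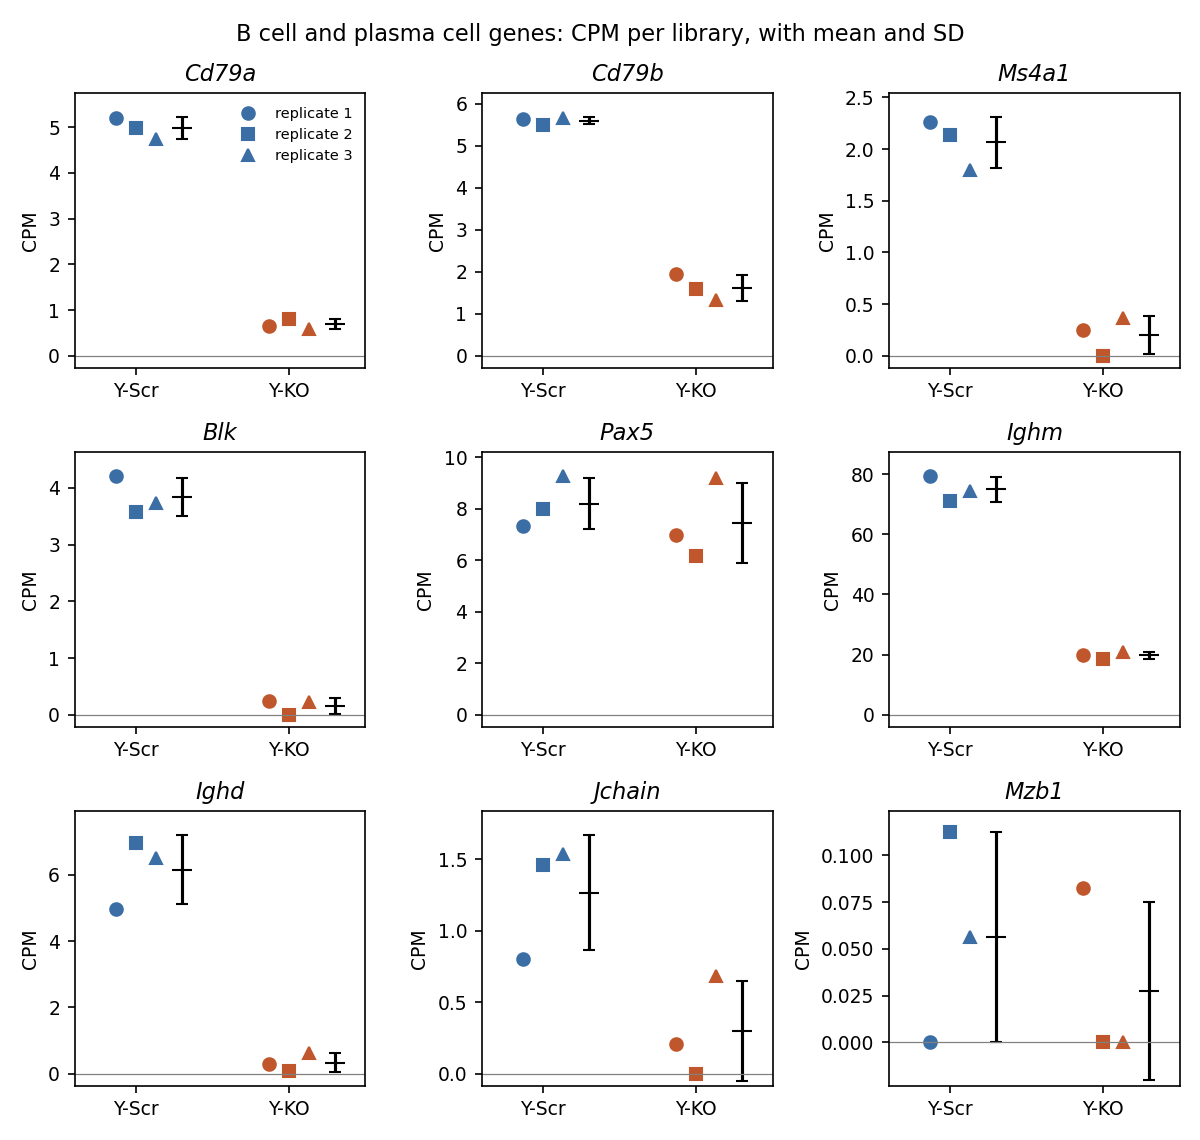
Level of each of the 9 genes in each library (CPM on a linear axis of its own, circles, squares and triangles for replicates 1, 2 and 3, with the mean and SD of 3 libraries beside them). The groups are apart for all genes except Pax5 and Mzb1; Mzb1 stays at or below 0.112 CPM.

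The signalling chains of the B cell receptor both fell. Cd79a (ENSMUSG00000003379, chromosome 7, 24596806 to 24601622, GRCm39) stood at 0.660, 0.812 and 0.590 CPM in Y-KO replicates 1, 2 and 3 and at 5.21, 4.98 and 4.73 CPM in Y-Scr. All 3 Y-KO libraries were alike and far below the lowest Y-Scr library. The gene was 7.21-fold lower (-2.85 ± 0.27 on the log2 scale with its SE, adjusted p = 0.000413 in edgeR). Cd79b (ENSMUSG00000040592, chromosome 11, 106202167 to 106205588) stood at 1.94, 1.58 and 1.32 CPM in Y-KO and at 5.63, 5.50 and 5.65 CPM in Y-Scr. It was 3.46-fold lower (-1.79 ± 0.24 on the log2 scale with its SE, adjusted p = 0.00216 in edgeR), and the groups did not overlap. Both calls remained without any single library and with each close pair summed into 1 sample.

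The chains form a pair in the protein, and the ratio of their transcripts was examined after the values had been seen. Cd79a was at 34.0%, 51.4% and 44.8% of the Cd79b CPM in Y-KO and at 92.5%, 90.6% and 83.8% in Y-Scr, without overlap. The ratio was 2.08-fold lower in Y-KO. In an exact two-sided permutation test this gave p = 0.1, the smallest that 3 against 3 libraries allow (0.133 adjusted over 4 such ratios, all chosen after seeing the data). In Y-KO the Cd79a values rest on 26 to 36 counts per library.

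The surface molecule CD20 and the kinase Blk were close to the detection limit in Y-KO. Ms4a1 (ENSMUSG00000024673, chromosome 19, 11227039 to 11243605) had 12, 0 and 16 counts in Y-KO and 124, 95 and 96 in Y-Scr, or 0.248, 0 and 0.363 CPM against 2.27, 2.13 and 1.79 CPM. No Y-KO library came near the lowest Y-Scr value, and the gene was 10.0-fold lower (-3.32 ± 0.84 on the log2 scale with its SE, adjusted p = 0.0305 in edgeR). That call was lost without Y-KO replicate 1 (adjusted p = 0.0707), on leaving out any of Y-Scr replicates 1, 2 and 3 (adjusted p = 0.115, 0.117 and 0.109 in that order) and with the close pairs summed (adjusted p = 0.0607). Blk (ENSMUSG00000014453, chromosome 14, 63610285 to 63654486) had 12, 0 and 10 counts in Y-KO and 230, 159 and 200 in Y-Scr. This was the member with the largest fitted change, 23.7-fold lower (-4.57 ± 0.71 on the log2 scale with its SE, adjusted p = 0.00418 in edgeR), and its call was kept without any single library.

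Pax5, in contrast to these genes, overlapped between the groups. Pax5 (ENSMUSG00000014030, chromosome 4, 44524757 to 44710487) stood at 6.97, 6.16 and 9.17 CPM in Y-KO and at 7.31, 7.99 and 9.25 CPM in Y-Scr. The highest Y-KO library, replicate 3, reached nearly the highest Y-Scr library. Its log2 fold change of -0.14 had an SE of 0.20 and did not pass (adjusted p = 0.700 in edgeR), and it ran from -0.32 to -0.02 when single libraries were left out. Cd79a was at 9.47%, 13.2% and 6.44% of the Pax5 CPM in Y-KO and at 71.2%, 62.4% and 51.1% in Y-Scr, 6.56-fold lower in Y-KO (exact two-sided permutation p = 0.1, the smallest possible; 0.133 adjusted over the 4 ratios). Of its 8853 exon bases, 636 and 125 are shared with the gene models 5730488B01Rik and Gm12462 on the other strand. Both had 0 counts in all libraries, and with the counter's default settings reads that fit both genes are left out.

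**Figure D2:**
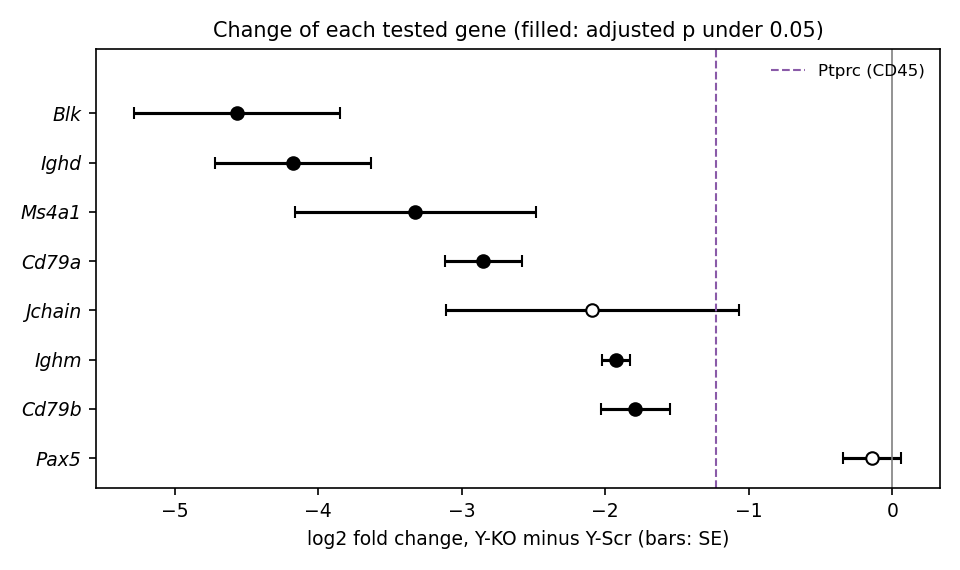
Log2 fold change of the 8 tested genes (Y-KO minus Y-Scr, points with SE; filled points passed an adjusted p under 0.05), with the change of Ptprc as a dashed line at -1.23. Blk lies lowest at -4.57 and Pax5 nearest to 0 at -0.14.

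The heavy chain genes of naive B cells fell by unequal amounts. Ighm (ENSMUSG00000076617, chromosome 12, 113382178 to 113386350), the mu chain constant region, stood at 20.01, 18.4 and 20.7 CPM in Y-KO and at 79.3, 71.0 and 74.5 CPM in Y-Scr. The replicates of each group lay close together, and the gene was 3.802-fold lower (-1.93 ± 0.10 on the log2 scale with its SE, adjusted p = 2.15e-05 in edgeR). Ighd (ENSMUSG00000104213, chromosome 12, 113370224 to 113379944), the delta chain that mature naive B cells carry beside mu, had 14, 4 and 28 counts in Y-KO and 272, 310 and 348 in Y-Scr. It was 18.1-fold lower (-4.18 ± 0.54 on the log2 scale with its SE, adjusted p = 0.00182 in edgeR). The calls of both genes remained without any single library and with the close pairs summed.

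Per unit of Ighm, Ighd was lower as well. It was at 1.44%, 0.491% and 3.07% of the Ighm CPM in Y-KO and at 6.27%, 9.79% and 8.73% in Y-Scr, so that every Y-KO library lay below every Y-Scr library. The ratio was 6.27-fold lower in Y-KO (exact two-sided permutation p = 0.1, the smallest possible; 0.133 adjusted over the 4 ratios) and Y-KO replicates 1, 2 and 3 differed widely. The kappa light chain gene Igkc stood at 3.36, 1.87 and 5.74 CPM in Y-KO and at 19.4, 17.5 and 17.05 CPM in Y-Scr, 4.91-fold lower (-2.30 ± 0.35 on the log2 scale with its SE, adjusted p = 0.00356 in edgeR). Relative to Ighm it overlapped between the groups, at 16.8%, 10.2% and 27.7% in Y-KO and 24.5%, 24.6% and 22.9% in Y-Scr (exact two-sided permutation p = 0.4).

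Heavy chain genes of switched classes each had fewer counts than Ighm in both groups, and Igha had the most of them. Of the 12 immunoglobulin constant region genes 8 could be tested, and 3 fell: Ighm, Ighd and Igkc. Ighg1 had 0 counts in Y-KO and 8 over the Y-Scr libraries, and Ighe had 1 count in all. Igha, the IgA chain, stood at 1.07, 3.18 and 1.79 CPM in Y-KO and 3.98, 5.00 and 3.29 CPM in Y-Scr (-1.02 ± 0.40 on the log2 scale with its SE, adjusted p = 0.121 in edgeR). Ighg2b overlapped between the groups (0.49 ± 0.54 on the log2 scale with its SE, adjusted p = 0.599 in edgeR). The lambda chain constant genes Iglc1, Iglc2 and Iglc3 had 93 to 110 counts over Y-Scr and 15 to 24 over Y-KO and did not pass (edgeR adjusted p = 0.258, 0.160 and 0.237).

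The plasma cell genes among the 9 gave little signal. Jchain (ENSMUSG00000067149, chromosome 5, 88667668 to 88675750) had 10, 0 and 30 counts in Y-KO and 44, 65 and 82 in Y-Scr, or 0.206, 0 and 0.681 CPM against 0.804, 1.46 and 1.53 CPM. The highest Y-KO library, replicate 3, lay just below the lowest Y-Scr library. Its log2 fold change of -2.09 had an SE of 1.02 and did not pass (adjusted p = 0.207 in edgeR). Without Y-KO replicate 3 the gene passed (log2 fold change -3.55, adjusted p = 0.00872), in a fit that keeps only the close pair in Y-KO. Mzb1 (ENSMUSG00000024353, chromosome 18) had 4, 0 and 0 counts in Y-KO and 0, 5 and 3 in Y-Scr and was left out by the filter on low counts. Of its 1215 exon bases 695 are shared with another gene on the same strand. With the counter's default settings reads that fit both are left out, so its counts may understate it.

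Other plasma cell genes did not move as a group. Of 12 in a wider list, 11 could be tested, 1 fell, 2 rose and 8 did not pass (median log2 fold change 0.06). Tnfrsf17, the receptor BCMA of long-lived plasma cells, had 0 counts in all 6 libraries. The kinase gene Pim2 fell 2.33-fold, from 30.8 ± 1.89 to 13.2 ± 1.08 CPM (mean and SD of n = 3, adjusted p = 0.000479 in edgeR). The endoplasmic reticulum genes Txndc5 and Fkbp11 rose by 0.32 and 0.49 on the log2 scale (edgeR adjusted p = 0.0235 and 0.0377). Neither passed without Y-KO replicate 1 or 2 or Y-Scr replicate 2 or 3, or with the close pairs summed. Secretory factors shared with many tissues, such as Xbp1 with a Y-KO mean of 197 ± 42.5 CPM and a Y-Scr mean of 189 ± 4.75 CPM (SD, n = 3), were abundant in both groups. The count of 3 called genes was 1 in each fit that left out Y-KO replicate 1 or 2 or Y-Scr replicate 2 or 3, and 7 in the fit without Y-KO replicate 3. With library size alone as the scaling it was 1.

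Compared per length (RPKM, CPM per kilobase of exon), the 9 genes had a clear order in Y-Scr. Ighm led with 39.7 ± 2.19 RPKM (SD, n = 3), followed by Cd79b at 3.91 ± 0.0565, Cd79a at 3.41 ± 0.165 and Ighd at 3.23 ± 0.548. Blk followed at 1.42 ± 0.122, Pax5 at 0.924 ± 0.111, Jchain at 0.503 ± 0.159, Ms4a1 at 0.334 ± 0.0393 and Mzb1 at 0.0462 ± 0.0462 RPKM. Neighbours in this order did not overlap, except Cd79a with Ighd and Jchain with Ms4a1. In Y-KO Ighm again led with 10.4 ± 0.641 RPKM, then Cd79b at 1.13 ± 0.218 and Pax5 at 0.840 ± 0.176, which overlapped. Cd79a at 0.472 ± 0.0779 RPKM stood below Pax5 there and above Ighd at 0.178 ± 0.145. From Ighd on down, that is, Jchain, Blk, Ms4a1 and Mzb1, each gene overlapped with the next in Y-KO.

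Of 20 B cell coreceptors and receptor signalling genes 18 could be tested, 5 fell, none rose and 13 did not pass (median log2 fold change -1.24). Fcmr, the IgM Fc receptor, fell 6.75-fold and the tetraspanin gene Cd37 3.07-fold (edgeR adjusted p = 0.00359 and 0.000179). Fcer2a, which encodes CD23, fell 14.3-fold (edgeR adjusted p = 0.0212), from 1.68, 0.875 and 1.87 CPM in the Y-Scr libraries to 0.165, 0.135 and 0 CPM. All 3 Y-KO values were under the limit of the low-count filter, so it entered the test only through Y-Scr, and it was named after its values were seen. It no longer passed when any Y-Scr library was left out (adjusted p = 0.0887, 0.0588 and 0.114 for replicates 1, 2 and 3) or with the close pairs summed (0.110).

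The kinase and adaptor genes Lyn, Btk, Blnk, Plcg2 and Syk, which macrophages also express, did not pass, with log2 fold changes of 0.37, 0.30, 0.15, 0.09 and -0.46. Lyn stood at 198, 192 and 99.0 CPM in Y-KO and 124, 124 and 131 CPM in Y-Scr, so that the Y-KO libraries lay on both sides of Y-Scr. The count of 5 called genes was 11 without Y-KO replicate 3 (8 lower and 3 higher) and 3 without Y-Scr replicate 1. It was 8 with DESeq2 or limma-voom and 9 without a filter on low counts.

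Transcription factor genes of B cells showed 5 lower, 1 higher and 5 not passing of 11 tested (median log2 fold change -0.73). Bach2, a repressor that holds B cells and T cells in a naive state, fell 5.06-fold, from 5.69 ± 1.25 to 1.12 ± 0.155 CPM (mean and SD of n = 3, adjusted p = 0.00111 in edgeR). Ikzf3, encoding the lymphoid factor Aiolos, fell 3.32-fold and Foxo1 1.61-fold (edgeR adjusted p = 0.00276 and 0.0278). Pou2af1, encoding the B cell coactivator that works with octamer-binding factors, fell 1.87-fold (edgeR adjusted p = 0.0360). Pou2af1 and Foxo1 no longer passed in any fit that left out a library, except the fit without Y-KO replicate 3 (Pou2af1 adjusted p from 0.0824 to 0.134, Foxo1 from 0.0815 to 0.136). Irf4, which plasma cells need, fell 1.66-fold (edgeR adjusted p = 0.0418), but did not pass on leaving out Y-KO replicate 1 (0.119) or any Y-Scr library (0.0905 to 0.197). Ebf1, the factor that acts before Pax5 in early B cells, was near the detection limit, with 0, 12 and 8 counts in Y-KO and 16, 40 and 24 in Y-Scr (edgeR adjusted p = 0.302). Tcf3 rose by 0.29 on the log2 scale (edgeR adjusted p = 0.0462), a call absent with library size alone as the scaling (0.269) and in every fit without 1 library but that without Y-KO replicate 3. The Tcf3 call was also absent with upper-quartile scaling, without a filter on low counts and with the replicate number as a block. None of Foxo1, Pou2af1, Irf4 and Tcf3 passed with the close pairs summed. The 6 calls numbered 2 without any 1 Y-Scr library or Y-KO replicate 1, 4 without Y-KO replicate 2, and 10 when replicate 3 of Y-KO was left out.

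Of 12 genes of B cell homing, activation and the germinal centre, 11 could be tested, 4 fell and 7 did not pass (median log2 fold change -0.25). Cxcr5, the receptor that guides B cells into follicles, fell 3.94-fold, from 2.58 ± 0.563 to 0.652 ± 0.415 CPM (mean and SD of n = 3, adjusted p = 0.0309 in edgeR). That call was lost without Y-KO replicate 2 (adjusted p = 0.0507) or any Y-Scr library (adjusted p from 0.0829 to 0.142), and with the close pairs summed (0.0674). Ccr7 and Cxcr4, homing receptors shared with T cells and myeloid cells, fell 1.62-fold and 1.30-fold (edgeR adjusted p = 0.00955 and 0.0235). Ccr7 did not pass without Y-Scr replicate 3, and Cxcr4 without Y-KO replicate 1 or 2 or Y-Scr replicate 2 or 3. With the close pairs summed neither passed (adjusted p = 0.0936 for Ccr7 and 0.253 for Cxcr4). The 4 calls fell to 2 without Y-KO replicate 2 or Y-Scr replicate 1 and to 1 without Y-Scr replicate 2. Without Y-Scr replicate 3 they fell to 0, and without Y-KO replicate 3 they became 8 (5 lower and 3 higher).

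Among 7 genes used by early B cell precursors, Vpreb2, Igll1 and Rag2 had 0 counts in all libraries, Rag1 had 8 in all and Vpreb1 had 0 to 16 per library. Only 3 could be tested and 2 fell, Il7r 2.08-fold and Dntt 3.13-fold (edgeR adjusted p = 0.0399 and 0.0492). Both calls were lost without Y-KO replicate 1 or any 1 Y-Scr library and with the close pairs summed, and that of Dntt also on leaving out Y-KO replicate 2 (adjusted p = 0.0857). Il7r is also carried by T cells.

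Of 10 genes for ligands that attract B cells or sustain them, 6 could be tested, 5 fell and 1 rose (median log2 fold change -2.01). Ltb, the lymphotoxin subunit that helps to organise lymphoid tissue, fell 4.42-fold, from 78.9 ± 5.56 to 17.9 ± 4.33 CPM (mean and SD of n = 3, adjusted p = 0.000197 in edgeR). Il6, a plasma cell survival factor among other roles, stood at 1.28, 2.17 and 0.363 CPM in Y-KO and 9.27, 11.7 and 8.71 CPM in Y-Scr, 7.78-fold lower (edgeR adjusted p = 0.00620). Tnfsf13, encoding the survival ligand APRIL, fell 3.66-fold (edgeR adjusted p = 0.00181), while its relative Tnfsf13b, encoding BAFF, rose by 0.45 on the log2 scale (edgeR adjusted p = 0.0430). The call of Tnfsf13b was lost with library size alone as the scaling (adjusted p = 0.128) and in each fit without 1 library but that without Y-KO replicate 3. It was also lost with upper-quartile scaling (0.0540), without a filter on low counts (0.0638) and with the replicate number as a block. With the close pairs summed, neither Tnfsf13b (adjusted p = 0.303) nor Il6 (0.0644) passed. The follicle chemokine gene Cxcl13 had 8 counts over Y-KO and 4 over Y-Scr, and Ccl21a had 0 in all. Of the 6 calls, 3 were left without Y-KO replicate 1 or any 1 Y-Scr library.

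**Figure D3:**
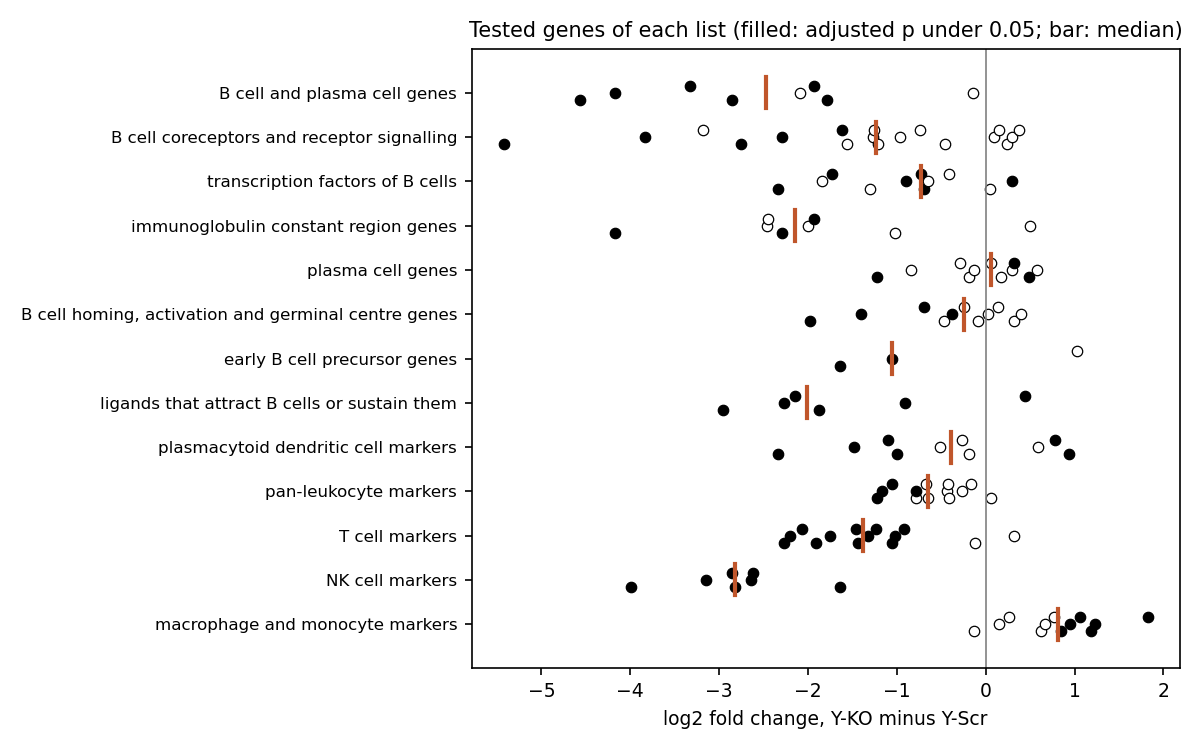
Log2 fold change (Y-KO minus Y-Scr) of every tested gene in the B cell lists and in the marker lists of other leukocytes; filled points passed an adjusted p under 0.05 and the bar is the list's median. The median of the 8 tested B cell and plasma cell genes is -2.47, that of NK cell markers -2.83 and that of macrophage and monocyte markers 0.81. Of those 8 genes, 4 reached the limit of the low-count filter in all 3 libraries only in Y-Scr.

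Markers of other leukocytes changed beside the B cell genes. Of 13 pan-leukocyte markers 4 fell and none rose (summed level 1518 to 3288 CPM in Y-KO and 3982 to 4153 CPM in Y-Scr), with Ptprc 2.34-fold lower (edgeR adjusted p = 0.0157). The Ptprc call was absent in each fit without 1 Y-Scr library (adjusted p = 0.0550, 0.0649 and 0.0746) and with the close pairs summed (0.116). The 4 calls became 1 without any 1 Y-Scr library and 10 without Y-KO replicate 3 (8 lower and 2 higher). Of 14 T cell markers 12 fell (summed level 147 to 257 CPM against 508 to 566 CPM) and all 7 NK cell markers fell (68.5 to 124 CPM against 673 to 718 CPM). Among 12 markers of macrophages and monocytes, 6 rose and 0 fell (1473 to 2781 CPM against 1584 to 1766 CPM), and 12 were called without Y-KO replicate 3. None of these 46 markers was at 0. The part of leukocyte content in the fall of the B cell genes was not tested.

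Plasmacytoid dendritic cells share several genes with B cells. Of 10 of their markers 4 fell, 2 rose and 4 did not pass (summed level 516 to 572 CPM in Y-KO and 373 to 412 CPM in Y-Scr, most of it the interferon-induced Bst2). Siglech, their defining surface lectin, stood at 4.27, 6.00 and 4.34 CPM in Y-KO and 10.6, 11.7 and 9.01 CPM in Y-Scr, 2.15-fold lower (edgeR adjusted p = 0.00907). The call of Siglech was lost without Y-Scr replicate 2 (adjusted p = 0.0612) and with the close pairs summed (0.0638). Ly6d, a marker shared with B cells and their progenitors, fell 5.05-fold, from 21.0 ± 1.49 to 4.16 ± 0.410 CPM (mean and SD of n = 3, adjusted p = 6.05e-05 in edgeR). Ccr9 fell 2.80-fold, and Bst2 and Cox6a2 rose by 0.78 and 0.94 on the log2 scale (edgeR adjusted p = 0.00276, 0.00103 and 0.0381). Cox6a2 did not pass without Y-KO replicate 1 or any 1 Y-Scr library, and neither Bst2 nor Cox6a2 passed with the close pairs summed (adjusted p = 0.0542 and 0.126). Of the 6 calls, 3 were left without Y-Scr replicate 2. How far such cells contributed to the 9 genes was not tested.

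Because 4 of 13 pan-leukocyte markers were called lower in Y-KO, members were also set against Ptprc. Ptprc had the lowest log2 fold change of the 13 (-1.23, list median -0.65) and encodes CD45, against which the cells were sorted. A fall in Y-KO thus comes out smaller against it than against the other markers. Ms4a1, Blk and Jchain had 0 counts in Y-KO replicate 2 and were left out for that reason, as was Mzb1. The 5 members with counts in every library were expressed per 1000 CPM of Ptprc. Cd79a was at 2.26, 2.72 and 4.39 in Y-KO and at 10.0, 8.63 and 7.86 in Y-Scr, without overlap, and 2.93-fold lower. Ighd was at 0.987, 0.303 and 4.73 in Y-KO and at 9.54, 12.05 and 10.8 in Y-Scr, also without overlap, and 9.58-fold lower. Both had a p of 0.1 in the exact permutation test (0.167 adjusted over the 5 genes), which is as low as this design reaches.

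Cd79b, Ighm and Pax5 behaved otherwise on this scale. Cd79b was at 6.63, 5.30 and 9.80 in Y-KO and 10.8, 9.52 and 9.39 in Y-Scr (exact permutation p = 0.3). Ighm was at 68.4, 61.6 and 154 in Y-KO and 152, 123 and 124 in Y-Scr (exact permutation p = 0.4). In both the groups overlapped, and Y-KO replicate 3, the library with the least Ptprc, lay within or above the Y-Scr range. Without that library the log2 difference of Ighm was -1.03, against -0.61 with all libraries, and the groups overlapped neither for Ighm nor for Cd79b. Pax5 was higher per Ptprc in every Y-KO library, at 23.8, 20.7 and 68.3 against 14.0, 13.8 and 15.4, a 2.24-fold difference (exact permutation p = 0.1, the smallest possible; 0.167 adjusted over the 5 genes). Without Y-KO replicate 3 its log2 difference was 0.62, against 1.16 with all libraries. With the geometric mean of the 13 pan-leukocyte markers in place of Ptprc, the log2 differences were -2.17 for Cd79a, -1.11 for Cd79b, -1.23 for Ighm, -3.88 for Ighd and 0.55 for Pax5. On that reference the exact permutation p was 0.1, the smallest possible, for Cd79a, Cd79b, Ighm and Ighd and 0.5 for Pax5. These p-values were not adjusted.

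**Figure D4:**
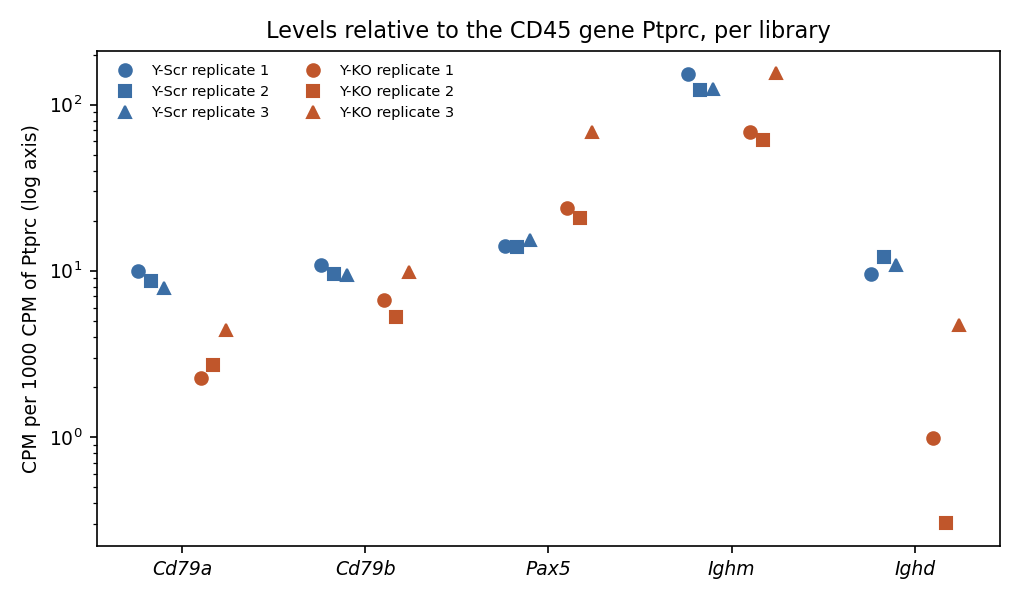
CPM of 5 genes per 1000 CPM of Ptprc in each library (log axis, symbols for replicates 1, 2 and 3). Cd79a and Ighd lie lower in all 3 Y-KO libraries, Pax5 lies higher, and Y-KO replicate 3 stands highest of its group for all 5 genes.

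The genes whose levels followed the mean log2 CPM of the 8 tested members most closely over the 6 libraries were Cd163l1 (Pearson r = 0.998), Grk5 (0.997), Crebl2 (0.996), Sh2b1 (0.996) and Golga7b (0.995). They were taken from 12259 named genes with a mean of at least 1 CPM, leaving out antigen receptor segments, and 21 of these reached an r of 0.99. The 6 points share the split into groups, so any gene with a clean group difference scores high, and no test was made. The mean level of Cd163l1 was 0.202 CPM for Y-KO and 12.2 CPM for Y-Scr, whereas Sh2b1 differed by only -0.51 on the log2 scale.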

How the data were processed

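Bulk RNA-seq of 3 Y-KO and 3 Y-Scr libraries was analysed from the deposited raw counts per gene. They come from featureCounts 1.5.3 on the Ensembl 112 annotation of GRCm39 with no option besides, per the file headers. Per the submitters' processing notes the tools included Trimmomatic 0.39 and STAR 2.5.2b. By that counter's defaults strand was not used, and reads that fit several genes were left out. Counts from 2 to 20 were even in 80.3% to 82.3% of cases per library, the cause was not tested, and halved counts were run as an alternative. The genes' exon length, another column of the deposited table, gave RPKM.

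Symbols came from a GENCODE table of an older annotation, matched by gene ID for 51880 of 57186 genes (90.7%). In edgeR 4.0.16 (R 4.3.3), filterByExpr (minimum count 10, minimum total 15) left 17837 genes. TMM scaling and a quasi-likelihood test of group followed, and calls had a Benjamini-Hochberg adjusted p under 0.05. An SE is the size of the log2 fold change divided by the square root of F. Log2 CPM used a prior count of 2. Ratios were compared by exact permutation in Python 3.11.15, and steps were tested on simulated data. Alternatives were a replicate block, DESeq2 1.42.0, limma-voom (limma 3.58.1), other scalings and filters, halved counts, summed close pairs and leaving out each library. The members, lists and tests were chosen with earlier results of these data known. Named genes are the 9 members, the 4 genes with the smallest p of each list, and any gene of a list of up to 12. Fcer2a, Lyn, Btk, Blnk, Plcg2 and Syk were named after their values were seen. Some genes of these lists are counted but not reported here by name.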

Additional observations from a re-analysis of the deposited data

How the results depend on the processing

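The 6 calls among the 9 genes stayed 6 with DESeq2, limma-voom, the other scalings, the other filters and halved counts, and ran from 5 to 7 when single libraries were left out. Their direction held in every alternative. Ms4a1 lost its call with the replicate number as a block (log2 fold change -3.64, adjusted p = 0.0549) and with the close pairs summed (-3.16), and 5 members then passed. Leaving out single libraries, its log2 fold change ran from -4.00 to -2.75 and that of Jchain from -3.55 to -1.51. Deviations of same-numbered libraries correlated at -0.00835, 0.0049 and -0.0145. That shows no sign of pairing by replicate number, but 3 libraries per group cannot exclude it. The block called 1120 genes lower and 946 higher, against 1476 and 1395 in the main fit.

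With the close pairs summed, 360 genes were lower and 136 higher. Called genes then numbered 3 for the coreceptors, 2 for the transcription factors, 1 for the plasma cell genes, 0 for homing genes, 0 for early precursors, 2 for ligands, 2 for plasmacytoid dendritic cell markers, 0 for pan-leukocyte, 6 for T cell and 1 for macrophage markers. With library size alone 2255 genes were lower and 730 higher, and 1 plasma cell gene was called. DESeq2 called 8 coreceptor, 5 plasma cell and 7 pan-leukocyte genes, limma-voom 8 coreceptor genes, and the fit without a filter 9 coreceptor and 9 pan-leukocyte genes. The causes were not tested.

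Leaving out single libraries gave 560 to 3364 genes lower and 461 to 3029 higher. The list counts that follow pool lower and higher calls. Called genes ran from 3 to 11 for coreceptors, 2 to 10 for transcription factors, 1 to 7 for plasma cell genes, 0 to 8 for homing genes, 0 to 2 for early precursors, 3 to 6 for ligands, 3 to 7 for plasmacytoid dendritic cell markers, 1 to 10 for pan-leukocyte, 9 to 13 for T cell and 5 to 12 for macrophage markers. With the pan-leukocyte reference the log2 ratio moved to -2.17 for Cd79a, -1.11 for Cd79b and -1.23 for Ighm. Values that rest on fewer than about 10 counts in a library are imprecise at this depth. Mzb1 was left out of the main fit by the low-count filter.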

Other observations

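Within the heavy chain constant genes, the share of counts on switched classes (gamma, alpha and epsilon) was 8.21%, 19.9% and 12.6% in Y-KO replicates 1, 2 and 3. In Y-Scr it was 5.18%, 7.23% and 5.12%. The exact 95% binomial intervals, which cover counting error only, were 6.64% to 10.0%, 17.5% to 22.5% and 10.7% to 14.8% in Y-KO. In Y-Scr they were 4.58% to 5.85%, 6.43% to 8.11% and 4.50% to 5.80%. Most low counts in these libraries were even numbers, so 1 fragment may often stand for 2 counts, and the intervals may then be too narrow even for counting error. The shares themselves did not overlap between the groups, but the intervals of Y-KO replicate 1 and Y-Scr replicate 2 did. The number of switched counts was lower in Y-KO (88, 203 and 136) than in Y-Scr (252, 271 and 234). The total of heavy chain counts was 1072, 1021 and 1077 against 4861, 3746 and 4566. These shares were singled out after the data were seen and were not tested.

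The kappa share of light chain constant counts was 92.6%, 76.1% and 94.4% in Y-KO and 91.0%, 90.5% and 89.1% in Y-Scr. Only Y-KO replicate 2, with 83 kappa and 26 lambda counts, stood away from the other 5 libraries.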
